A study of Mus musculus with 6 samples.

Results

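The GABA-A receptor subunit genes described here are 7 named genes, Gabra2, Gabra3, Gabra4, Gabra5, Gabra6, Gabrb2 and Gabrd. They were chosen by symbol, with earlier results of these data known, from the 55341 genes listed in every library. All 7 passed the filter on low counts, as did 16343 genes in all. Poly(A) RNA was sequenced from mouse cerebellar granule neurons (CGNs) that were treated with DMSO, the vehicle (n = 3 libraries), or with GSK-126, an inhibitor of the H3K27 methyltransferase EZH2 (n = 3 libraries). EZH2 is the catalytic subunit of a complex that trimethylates lysine 27 of histone H3, a mark of repressed genes. Per the study's methods, CGNs were purified on a density gradient from the pooled cerebella of early postnatal CD1-IGS litters without any engineered allele, and a replicate is 1 such preparation. The culture protocol also adds cytosine arabinoside, which blocks division of non-neuronal cells, after plating. Dose and time of treatment are not stated in the labels, which give the source as cerebellum although the titles name CGNs. The table names carry a day code that points to addition on the first day in culture, and the labels are silent on it.

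GABA-A receptors are pentameric chloride channels that open when GABA binds, and most hold alpha and beta subunits together with a gamma or a delta subunit. Receptors with a gamma subunit gather mainly at synapses, whereas receptors with the delta subunit lie outside synapses and carry the tonic current. In the cerebellum the alpha6 subunit is a classic mark of mature granule neurons, where it assembles with delta, and alpha2 and alpha3 are typical of immature neurons. The comparison asks which of these genes depend on EZH2 activity in neurons that have stopped dividing.

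The genes for alpha6 (Gabra6) and delta (Gabrd) were lower after GSK-126 in all 3 pairs of libraries with the same replicate number. In the fit that compared such pairs both passed the threshold, at 62.6% and 57.9% lower. With treatment as the only term neither passed (edgeR adjusted p = 0.806 and 0.725). The labels do not state that the libraries of a pair came from 1 preparation. Gabrb2, which encodes the beta2 subunit, was lower in each pair by a smaller amount and missed the threshold. The alpha2 gene Gabra2 had higher values in every GSK-126 library than in any DMSO library, but 1 pair held most of that difference. Gabra2, Gabra3, Gabra4 and Gabra5 did not pass the threshold in either of these 2 fits.

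Gabra6 and Gabra2 are the 2 alpha genes whose levels did not overlap between the groups, in opposite directions, so their start regions are shown. Both are RefSeq promoter windows of GRCm38.p6, 250 bases before to 50 bases after the start site, written 5′ to 3′ on the gene's own strand with each CG dinucleotide in capitals. The Gabra6 window lies at chr11:42321023-42321322 on the minus strand and the Gabra2 window at chr5:71095800-71096099 on the minus strand.
Gabra6: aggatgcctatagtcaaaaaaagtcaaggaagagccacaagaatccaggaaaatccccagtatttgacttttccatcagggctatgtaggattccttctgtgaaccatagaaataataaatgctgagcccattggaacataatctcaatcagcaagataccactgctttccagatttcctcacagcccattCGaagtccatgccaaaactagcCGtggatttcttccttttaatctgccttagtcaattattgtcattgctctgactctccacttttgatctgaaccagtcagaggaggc
Gabra2: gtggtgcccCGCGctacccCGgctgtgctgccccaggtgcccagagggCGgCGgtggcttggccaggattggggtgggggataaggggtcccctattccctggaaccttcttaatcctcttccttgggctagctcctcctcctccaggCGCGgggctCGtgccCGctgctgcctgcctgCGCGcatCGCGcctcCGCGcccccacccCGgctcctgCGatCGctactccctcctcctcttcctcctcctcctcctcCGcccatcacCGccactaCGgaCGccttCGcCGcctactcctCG
The Gabra6 window held 2 CG dinucleotides with a GC content of 42%, fewer than the median of 7 over 32851 windows of this length, and 14.1% of windows held fewer. The Gabra2 window held 25 with a GC content of 70%, and 81.6% of windows held fewer. A window was matched for 6 of the 7 members, all but Gabrd. Those of Gabra4 and Gabra5 held 12 and 13 CG dinucleotides, the 3 of Gabrb2 held 9 to 11, and both of Gabra3 held 0. The nuclear factor I half-site TTGGC, searched on both strands, was in both printed windows and in 46.7% of all windows. The E-box CANNTG was in the Gabra2 window, was not found in the Gabra6 window and was in 72.3% of all windows. These letter matches are descriptions and not binding sites.

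The 6 libraries held 8058760 to 12047837 counts over genes, and a count of 3, used as a floor, equals 0.249 to 0.372 CPM (the count of a gene relative to the library total over genes, scaled with TMM factors). This floor covers counting error only, since the reads carry no molecular identifiers. Libraries with the same replicate number deviated together from their group means, so a second fit, in which the replicate number enters as a block, stands beside the one with treatment only. Without the block 0 of 16343 genes passed an adjusted p of 0.05 (0%), whereas 981 had an unadjusted p under 0.05; DESeq2 called 33 genes higher and 15 lower. With the block edgeR called 232 genes lower (1.42%) and 365 higher (2.23%).

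Counts of 8 granule neuron markers were present in every library, and their summed level ran from 4810 to 6550 CPM in DMSO and from 3420 to 5400 CPM in GSK-126. With the block 4 of these 8 fell (edgeR, adjusted p from 0.00139 for Etv1 to 0.0265 for Neurod1), beside 1.42% of all genes tested. Of the 8, 0 rose, beside 2.23%, and the median log2 difference was -0.45 beside -0.00202 over all genes. Markers of other cells were also present, and no marker was at 0 throughout. The 6 astrocyte markers summed to 1990 to 6520 CPM in DMSO and 2060 to 6750 CPM in GSK-126, highest in replicate 1 and lowest in replicate 2 of both groups. The 9 markers of cerebellar GABAergic neurons summed to 200 to 267 CPM in DMSO and 173 to 202 CPM in GSK-126. The 7 oligodendrocyte lineage markers summed to 416 to 666 and 465 to 788 CPM, the 6 microglia markers to 179 to 288 and 206 to 437 CPM, the 5 endothelial and mural markers to 152 to 229 and 207 to 303 CPM, and the 6 precursor and division markers to 176 to 292 and 206 to 284 CPM, in DMSO and GSK-126 respectively. With the block, Gdf10 of the astrocyte list (edgeR adjusted p = 0.0459) and Pdgfrb of the endothelial and mural list (edgeR adjusted p = 0.0111) rose, and Slc32a1 of the GABAergic list fell. Their lists were mixed. In all 3 pairs 2 astrocyte markers were lower and 2 higher, and 1 endothelial and mural marker was lower and 2 higher. Of the GABAergic list 3 were lower and 0 higher in all 3 pairs, while Pvalb and Calb1 had blocked log2 differences of 0.35 each, not called. In bulk RNA, fewer granule neurons and less RNA per granule neuron cannot be told apart. The part of the cell mixture in the values below was not tested. The scaling to granule neuron markers given further on does not separate these, because its sum includes the 4 markers that fell.

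Of the 7 members, Gabra6 had the highest mean level per exon length in DMSO cultures (values below). It lies at chr11:42306437-42321072 on the minus strand of GRCm38. Its level was 102, 208 and 86.3 CPM in DMSO replicates 1, 2 and 3, and 33.1, 77.9 and 37.4 CPM in GSK-126 replicates 1, 2 and 3. Every GSK-126 library was below every DMSO library, and replicate 2 was the highest of both groups. The mean went from 132 ± 66.2 CPM to 49.4 ± 24.7 CPM (SD, n = 3 each). With treatment as the only term the log2 difference was -1.42 (SE 0.41, edgeR adjusted p = 0.806). The block left that value at -1.42 while its SE went to 0.12, with a 95% interval of -1.68 to -1.16, and Gabra6 then passed the threshold (edgeR adjusted p = 0.00034), with rank 4 of all genes by p-value. The 3 within-pair log2 ratios were -1.63, -1.42 and -1.20.

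Gabra2 lies at chr5:70957597-71095849 on the minus strand. Its level was 45.6, 27.4 and 38.8 CPM in the DMSO replicates and 45.9, 84.8 and 46.2 CPM in the GSK-126 replicates, in the same order. The groups did not overlap, but the highest DMSO library and the lowest GSK-126 library were nearly level, and replicate 2 was both the lowest DMSO and the highest GSK-126 library. The means were 37.3 ± 9.16 and 59.0 ± 22.4 CPM (SD, n = 3 each). The log2 difference of 0.66 had an SE of 0.28 (edgeR adjusted p = 0.825), and the blocked one was 0.62 (SE 0.25, 95% interval 0.07 to 1.16, edgeR adjusted p = 0.232). The within-pair log2 ratios were 0.01, 1.62 and 0.25, so replicate 2 stood far above the others. Without replicate 2 the blocked value was 0.15 (edgeR adjusted p = 0.75), whereas it was 0.94 without replicate 1 (edgeR adjusted p = 0.0472) and 0.81 without replicate 3 (edgeR adjusted p = 0.0294).

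Gabra5, the alpha5 gene of mostly extrasynaptic receptors, was the least abundant member and lies at chr7:57407672-57510059. Its counts were 15, 32 and 13 in the DMSO replicates and 79, 64 and 14 in the GSK-126 replicates, or 1.53 to 3.99 and 1.59 to 7.69 CPM. Replicates 1 and 2 were higher in GSK-126 while replicate 3 was level in both groups. On the log2 scale the difference was 1.13 with an SE of 0.62 (edgeR adjusted p = 0.825), and the blocked one 1.06 (SE 0.41, 95% interval 0.16 to 1.95, edgeR adjusted p = 0.214). Of its exon bases 4.98% overlap Gm9962 on the other strand, and the strand setting of the counts is not given in the sources used here.

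Gabra4 and Gabra3 gave small differences. Gabra4, which encodes alpha4, the usual partner of delta in the forebrain, lies at chr5:71569749-71658308, where 0.756% of its exon bases overlap Gabrb1 on the other strand. It was at 57.6, 20.3 and 34.9 CPM in DMSO and 47.7, 30.8 and 28.1 CPM in GSK-126, so the spread between replicates exceeded the difference between groups. Its blocked log2 difference was -0.02, with a 95% interval of -0.42 to 0.38 (edgeR adjusted p = 0.976), and its sign turned under several alternatives. Gabra3, on the X chromosome at chrX:72432681-72656848, was at 10.1, 11.5 and 9.31 CPM in DMSO and 5.73, 9.37 and 8.97 CPM in GSK-126. The groups overlapped by a single value, and its blocked log2 difference was -0.39, with a 95% interval of -0.92 to 0.14 (edgeR adjusted p = 0.465).

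Gabrd, the delta gene, lies at chr4:155384980-155398112 on the minus strand. Its level was 44.3, 105 and 64.3 CPM in the DMSO replicates and 21.7, 38.8 and 26.8 CPM in the GSK-126 replicates. All GSK-126 libraries were below all DMSO libraries, and the mean went from 71.3 ± 31.1 to 29.1 ± 8.79 CPM (SD, n = 3 each). With treatment only its log2 difference was -1.30 (SE 0.33, edgeR adjusted p = 0.725). It passed the threshold with the block at -1.25 (SE 0.13, 95% interval -1.54 to -0.96, edgeR adjusted p = 0.0010), and the within-pair log2 ratios were -1.02, -1.44 and -1.26.

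Gabrb2, the beta2 gene, lies next to Gabra6 at chr11:42419757-42629028 on the plus strand. It was at 123, 165 and 105 CPM in DMSO and 65.9, 131 and 82.6 CPM in GSK-126. The groups overlapped because replicate 2 was the highest library of each, while the 3 within-pair log2 ratios were -0.89, -0.34 and -0.34. Its log2 difference of -0.49 had an SE of 0.27 (edgeR adjusted p = 0.825), and the blocked one was -0.52 (SE 0.13, 95% interval -0.81 to -0.24, edgeR adjusted p = 0.0521). DESeq2 with the block put Gabrb2 inside the threshold (DESeq2 adjusted p = 0.0213).

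**Figure D1:**
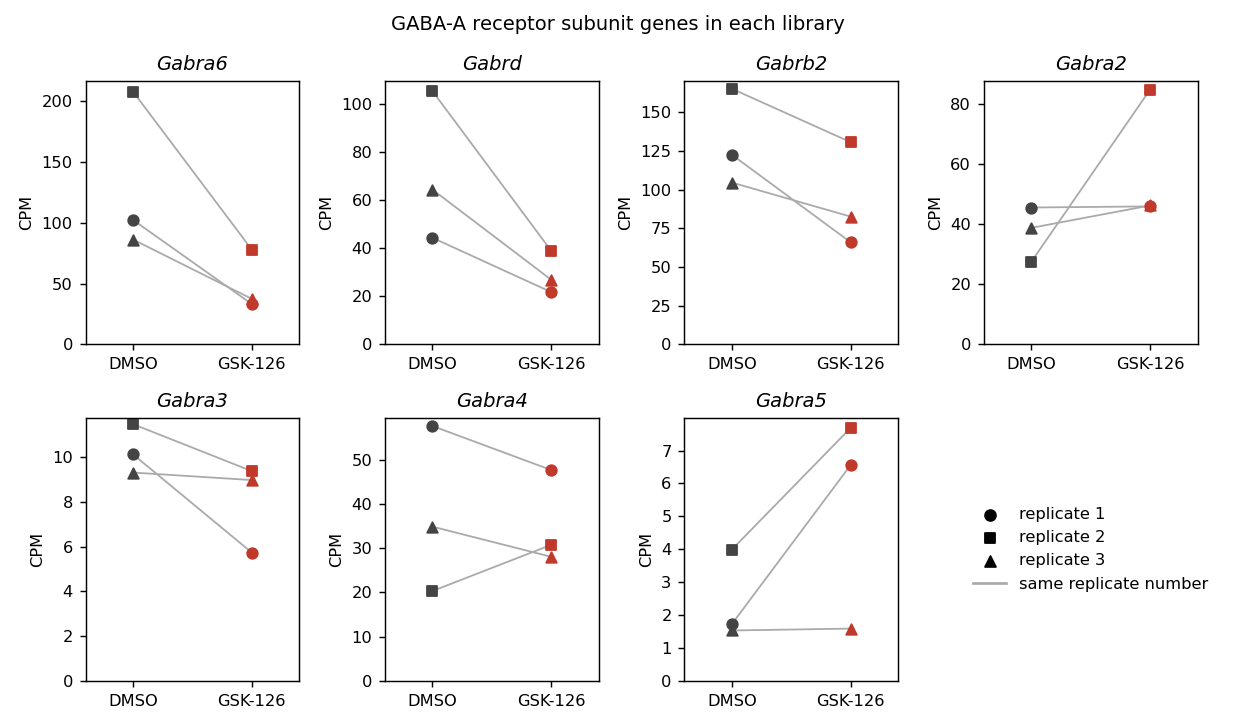
Level of the 7 member genes in each library, in CPM on linear axes that start at 0, with DMSO on the left and GSK-126 on the right. Each symbol is 1 library and lines join libraries of the same replicate number; the lines of Gabra6, Gabrd, Gabrb2 and Gabra3 slope down in all 3 pairs, and the steep line of Gabra2 is replicate 2.

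Counted over the 7 members, 2 passed the threshold with the block and both were lower (Gabra6 and Gabrd), beside 1.42% of all genes tested; 0 were called higher, beside 2.23%. Without the block 0 members were called by edgeR, and 3 had an unadjusted p under 0.05, beside 981 of all 16343 genes. DESeq2 called 2, both lower, beside 0.0801% of all genes. The groups did not overlap for 2 members that were lower (5.44% of all genes) and 1 that was higher (5.43%). In all 3 pairs 4 members were lower (19.3% of all genes) and 2 were higher (19.7%), a count of signs with no minimum size that includes log2 ratios as small as 0.01 for Gabra2 and 0.05 for Gabra5. The median log2 difference of the 7 members with the block was -0.39, beside -0.00202 over all genes. Since the members were chosen with earlier results of these data known, these comparisons are descriptions and no independent test.

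The 12 other subunit genes were counted in the same way. Of these, 7 passed the filter. With the block 2 fell, beside 1.42% of all genes tested, and 0 rose, beside 2.23%. The blocked median was -0.16 on the log2 scale. Gabrb1, the beta1 gene, had a blocked log2 difference of -0.16 (edgeR adjusted p = 0.654). The blocked values of the low-abundance Gabrg1, Gabrg3 and Gabre were 0.28, 0.72 and -0.15, each with an adjusted p of 0.523 or more in edgeR. Gabrr1 had 2, 24 and 11 counts in DMSO and 2, 3 and 0 in GSK-126, Gabrr2 had 7 to 16 counts, Gabrq 0 or 1, and Gabrp and Gabrr3 had 0 counts in every library.

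**Figure D2:**
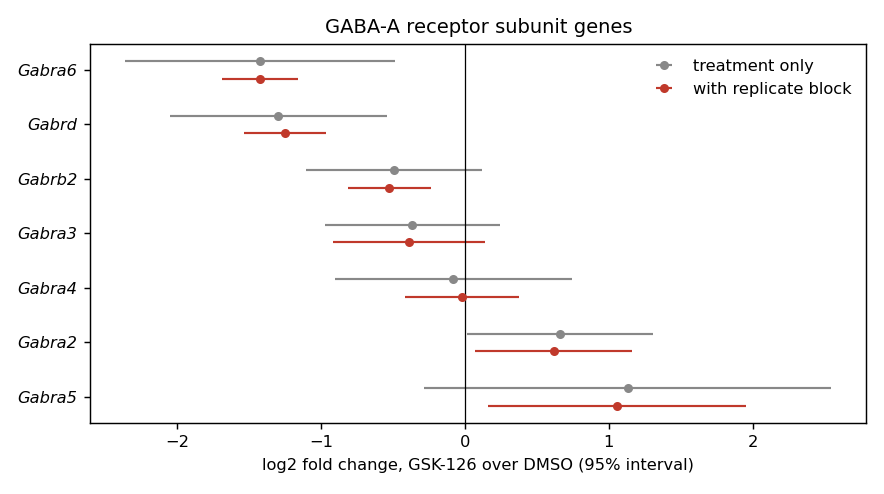
Log2 fold change of GSK-126 over DMSO for the 7 member genes, from edgeR with treatment only (grey) and with the replicate block (red). Points are estimates and bars 95% intervals. The red intervals of Gabra6 and Gabrd, which pass the adjusted threshold with the block, lie wholly below 0. Those of Gabrb2 (below 0), Gabra2 and Gabra5 (both above 0) also exclude 0, but these genes miss the adjusted threshold. Both intervals of Gabra4 and Gabra3 span 0.

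To compare members with each other, CPM were divided by exon length in kilobases. On this scale the order in DMSO was Gabra6 with a mean of 53.1 CPM per kilobase, Gabrd with 24.8 and Gabrb2 with 20.6, and the ranges of neighbours in this order overlapped. A gap followed, with Gabra4 at 6.18, Gabra2 at 4.88, Gabra3 at 2.62 and Gabra5 at 0.812 CPM per kilobase. The ranges did not overlap between Gabrb2 and Gabra4, between Gabra2 and Gabra3, or between Gabra3 and Gabra5. In GSK-126 the highest mean was again that of Gabra6 at 19.9, followed by Gabrb2 at 14.6 and Gabrd at 10.1 CPM per kilobase. Gabra2 followed at 7.72 and stood above Gabra4 at 5.83 CPM per kilobase.

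The makeup of the 5 alpha members, Gabra2 to Gabra6, differed as well, in shares that were added after the data had been seen. Gabra6 made up 68.9%, 88.2% and 71.7% of their summed level per kilobase in the DMSO replicates and 43.1%, 59.7% and 52.7% in the GSK-126 replicates. The groups did not overlap, and the mean share was lower by 24.4 percentage points in GSK-126 (76.2 ± 10.4% and 51.8 ± 8.31%, SD, n = 3 each; two-sided exact permutation p = 0.1, the smallest that 3 against 3 libraries can give). Gabra2 took 9.98%, 3.79% and 10.5% in DMSO and 19.5%, 21.2% and 21.2% in GSK-126. The share of Gabra2 thus varied less among the GSK-126 libraries than its CPM did. In DMSO the reverse held relative to the mean, with a share of 8.09 ± 3.73% beside 37.3 ± 9.16 CPM (SD, n = 3 each). Gabra4 had 10.4 ± 6.29% in DMSO and 17.1 ± 7.94% in GSK-126, Gabra3 had 4.1 ± 0.931% and 5.77 ± 1.95%, and Gabra5 had 1.15 ± 0.234% and 4.66 ± 2.65% (SD, n = 3 each). These shares sum to 100%, so a lower share of one member raises the others.

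**Figure D3:**
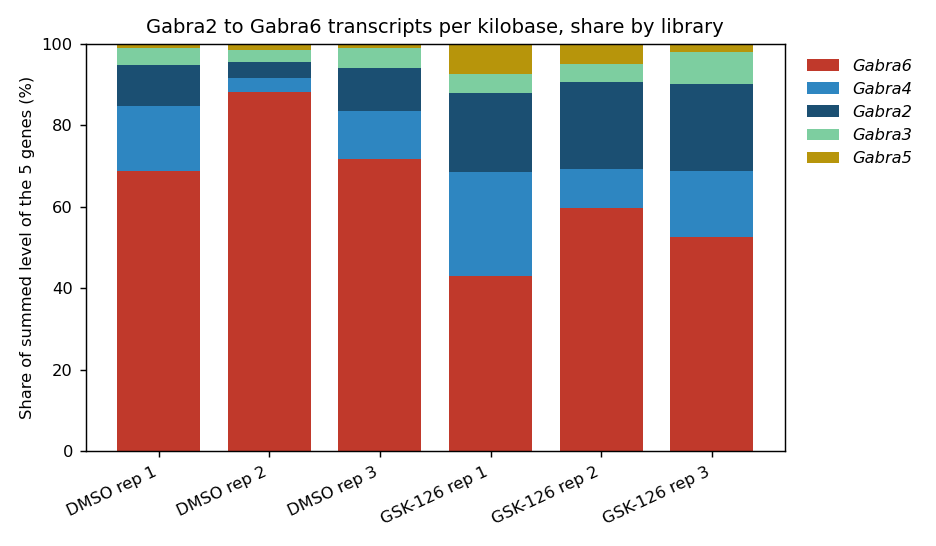
Share of each of the 5 alpha members in their summed level per kilobase, in percent, with 1 stacked bar per library. The bottom segment, Gabra6, ends between 68.9% and 88.2% in the DMSO libraries and between 43.1% and 59.7% in the GSK-126 libraries, while the Gabra2 segment is wider in all 3 GSK-126 libraries.

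The 7 members together summed to 94.4, 157 and 87.2 CPM per kilobase in DMSO and to 48.7, 86.5 and 50.8 in GSK-126. The groups did not overlap, although the highest GSK-126 and the lowest DMSO library were nearly level (two-sided exact permutation p = 0.1, again the smallest possible). Within the pairs the difference of GSK-126 minus DMSO was -45.7, -70.9 and -36.4 CPM per kilobase.

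Because 4 of the 8 granule neuron markers fell with the block, the counts were also set against the sum of all 8. This alternative was added after the data had been seen. Pax6 was level between the groups (blocked log2 difference 0.04), and without the block 0 of the 8 were called. Per 1000 marker counts, Gabra6 had 21.3, 31.7 and 16.4 in DMSO and 9.66, 14.4 and 9.24 in GSK-126. Gabrd had 9.21, 16.1 and 12.3 in DMSO and 6.34, 7.19 and 6.63 in GSK-126. Both remained lower in every GSK-126 library than in any DMSO library. Both passed with the block, at log2 differences of -1.04 (SE 0.12, edgeR adjusted p = 0.0015) and -0.87 (SE 0.15, edgeR adjusted p = 0.00556). Without the block this scaling called 0 members (edgeR adjusted p = 0.436 for Gabra6 and for Gabrd). Gabra2 had 9.47, 4.19 and 7.38 in DMSO and 13.4, 15.7 and 11.4 in GSK-126, again without overlap (blocked log2 difference 1.00, SE 0.24, edgeR adjusted p = 0.0177). Gabra5 passed as well (blocked log2 difference 1.43, edgeR adjusted p = 0.0341). Gabrb2 had 25.5, 25.2 and 19.9 in DMSO and 19.3, 24.2 and 20.4 in GSK-126, with a blocked log2 difference of -0.14 (edgeR adjusted p = 0.361). This scaling moved the median of all genes to 0.38 with the block, so 29.6% of all genes were called higher and 0.422% lower. The scaling adds nearly the same amount to every gene, so relative to that median the blocked values return by construction to -1.42 for Gabra6, -1.25 for Gabrd, 0.62 for Gabra2 and -0.52 for Gabrb2.

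**Figure D4:**
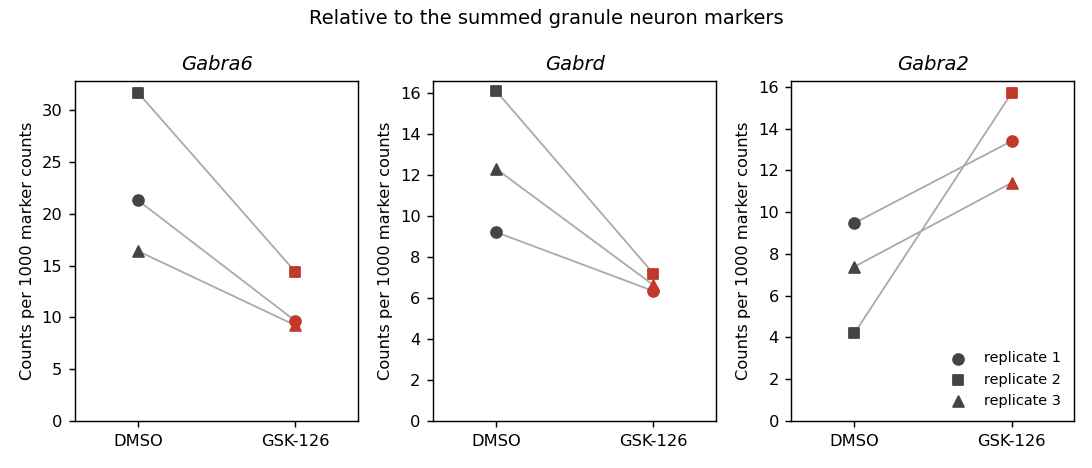
Counts of Gabra6, Gabrd and Gabra2 per 1000 counts of the 8 summed granule neuron markers, on linear axes that start at 0, with 1 symbol per library and lines joining the same replicate number. Gabra6 and Gabrd lie lower and Gabra2 higher in all 3 GSK-126 libraries than in any DMSO library.

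Among genes for proteins that anchor or carry the receptor, all 20 passed the filter. With the block 1 fell, beside 1.42% of all genes tested, and 0 rose, beside 2.23%. The median blocked log2 difference was -0.03. The one called was Hap1, whose product returns internalised receptors to the membrane, at 88.4 ± 11.6 CPM in DMSO and 55.5 ± 4.18 CPM in GSK-126 (SD, n = 3 each; blocked log2 difference -0.67, edgeR adjusted p = 0.0102). The groups did not overlap.

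Of 8 genes for GABA synthesis, transport and breakdown, 3 fell with the block, beside 1.42% of all genes tested. None of the 8 rose, beside 2.23%, and the median blocked log2 difference was -0.37. With one replicate number left out, 0 to 2 of the 8 were called. Slc32a1, the vesicular GABA transporter, was at 61.5 ± 3.56 and 41.2 ± 4.68 CPM in DMSO and GSK-126 (SD, n = 3 each; blocked log2 difference -0.58, edgeR adjusted p = 0.0283). The groups did not overlap for this gene. Slc6a13, a GABA transporter of the meninges, had 50.04, 4.36 and 10.7 CPM in DMSO and 22.8, 2.64 and 4.32 CPM in GSK-126 (blocked log2 difference -1.10, edgeR adjusted p = 0.0153), so replicate 1 was the highest of both groups. Slc32a1 is also one of the markers of GABAergic neurons given above. Of the 5 genes of the metabotropic GABA-B receptor and its auxiliary subunits, 4 passed the filter and 0 were called with the block, where 2 had an unadjusted p under 0.05 and DESeq2 with the block called 1. Gabbr1 and Gabbr2, which form the receptor, had blocked log2 differences of -0.10 (edgeR adjusted p = 0.683) and -0.40 (edgeR adjusted p = 0.0535).

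The genes whose log2 CPM followed each member most closely over the 6 libraries were ranked by Pearson r among 11411 candidates, as a description. The points share replicate numbers and treatment, so the libraries are not independent. Gabra6 was nearest to Mdh1 and Dnm1 (r = 0.999 each) and Tcte1 (r = 0.998), and Gabrd to Rps6ka1 and Phyhip (r = 0.993 each) and Tle3 (r = 0.992). Gabrb2 was nearest to Gm44832 (r = 0.997). For Gabra2 they were Stc2, Gm26616 and Barhl1 (r from 0.971 to 0.977), for Gabra3 Usp16, Adss and Xrn1 (r from 0.990 to 0.992), for Gabra4 Oxsm, Copg2 and Taco1 (r from 0.988 to 0.997), and for Gabra5 Zbed4, Pcdhb9 and Man1a2 (r from 0.967 to 0.985).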

How the data were processed

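The deposited values are raw whole-number counts of reads for each gene, in a separate table for every library, neither normalized nor pooled. Per the study's methods and the submitters' processing notes, the authors trimmed paired-end reads with Trimmomatic 0.38, aligned them to mm10 with STAR 2.7.2b and counted them over exons with HTSeq. Rows that name no gene (58.4% to 60.8% of fragments) were left out. Coordinates and exon lengths come from the GENCODE annotation of GRCm38, which held all 55341 symbols, and promoter windows from RefSeq.

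Counts were filtered with filterByExpr by group, scaled with TMM factors (0.993 to 1.01) and tested by quasi-likelihood in edgeR 4.0.16 (glmQLFTest) with treatment only (the study's methods name DESeq2 and no model terms), with Benjamini-Hochberg adjustment over 16343 genes and a threshold of 0.05. Blocked values come from the same test with the replicate number as a term. The numbers were taken to pair the libraries, because deviations from the group means correlated at 0.35, 0.5 and 0.52 for same numbers and at -0.41 to -0.01 for different numbers. Deviations from a group mean cancel out within that group, so the negative values are in part bound to the positive ones. The pairing was judged on the same data as the fits. Within-pair ratios used a prior count of 2. Shares were compared by exact permutation tests. Alternatives were DESeq2 1.42.0, RLE factors, no filter, leave-one-out fits, transcript length and, added after seeing the data, shares and sums over the members, scaling to granule neuron markers and the block without the filter.

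The members and lists were chosen with earlier results of these data known. Named genes were all 19 subunit genes, less some items that are not reported here, from each other list the called genes (up to 4 by blocked p) or otherwise the 2 most abundant, and for each member the 3 genes with the highest Pearson r of log2 CPM (mean CPM of at least 10). No pair of libraries agreed within sampling noise (lowest chi-square per degree of freedom 10.7).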

Additional observations from a re-analysis of the deposited data

How the results depend on the processing

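The number of members called was 0 with treatment only. It was 2 with the replicate block (beside 1.42% of all genes called lower) and 2 with DESeq2 (0.0801%). DESeq2 with the block called 3 (2.03%, Gabrb2 added), and edgeR without the filter called 2 (0.104%). All of these were lower. The block without the filter called 4 (1 higher beside 2.45% of all genes, 3 lower beside 1.48%). The block with granule marker scaling called 4 (2 higher beside 29.6% of all genes, 2 lower beside 0.422%), and this scaling without the block called 0. The number was 0 with each single library left out. With the block and one replicate number left out, 2 were lower each time (beside 0.319% to 1.87%). Gabra2 was then also called higher without replicate 1 (beside 2.4%) or 3 (beside 1.28%). Gabra6 and Gabrd kept their direction under every alternative run, with log2 values from -1.91 to -0.93 and from -1.56 to -0.89 when 1 library was left out, and were called in 3 of 3 blocked fits without one replicate number. With the block, the other subunits gave 2 calls, the anchoring list 1 and the GABA synthesis list 3, against 0 without it; DESeq2 with the block gave 3, 1, 3 and, for GABA-B, 1. All these calls were lower. The block without the filter gave 3, 4, 3 and 1, where 2 of the 4 anchoring genes were higher and the rest lower. With marker scaling the block gave 1, 8, 2 and 0; all 8 anchoring genes and 1 synthesis gene were higher, under a scaling that called 29.6% of all genes higher. Leaving out one replicate number under the block gave 1 to 3 for the other subunits, 0 to 2 for anchoring, 0 to 2 for synthesis and 0 to 1 for GABA-B. The cause of the shifts other than those under marker scaling was not tested.

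Directions turned only for values far from the threshold, and those that turned with marker scaling moved with the shift of 0.40 (0.38 with the block) that it gives the median of all genes. Leaving out 1 library gave -0.36 to 0.37 for Gabra4, -0.40 to 0.18 for Gabrb1 and -0.45 to 0.086 for Gabre. Gabra4 was at 0.37 without DMSO replicate 1, 0.013 and 0.062 without GSK-126 replicates 2 and 3, 0.12 and 0.14 with the block but without replicates 1 and 3, and 0.29 and 0.37 with marker scaling without and with the block. Gabrb1 was at 0.18 without DMSO replicate 1, 0.019 with the block but without replicate 1, and 0.17 and 0.23 with marker scaling. Gabre was at 0.086 and 0.080 without DMSO replicate 3 and GSK-126 replicate 2, and 0.27 and 0.24 with marker scaling. Gabra3 was at 0.00013 with marker scaling and no block. The Gabra6 share and the summed level of the members kept their direction in all alternatives run, at -28.3 to -18.4 percentage points and -63.9 to -28.8 CPM per kilobase with 1 library left out; the exact sign-flip test within pairs gave p = 0.25 for both, the smallest possible with 3 pairs. Among the members depth limits Gabra5 most, with 13 to 79 counts per library.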
